A study of Mus musculus with 6 samples.

Results

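Heat shock proteins and chaperones were followed across mouse embryonic stem (ES) cells that were wild type or carried a knockout of Zscan5b, a zinc finger gene with a SCAN domain. The members are 10 genes chosen by name: Hspa1a, Hspa1b, Hspa8, Hsp90aa1, Hsp90ab1, Hsph1, Dnajb1, Hspb1, Hspd1 and Hspe1. Every gene probe whose name in the scanner tables was one of these was taken, which gave 14 probes of 9 genes among 39429 gene probes. No probe carried the name Hspa1b. The design has 3 wild type and 3 Zscan5b knockout samples, each a separate 1-colour Agilent array of Cy3-labelled total RNA. All the cultures, controls included, were grown with leukemia inhibitory factor on mouse embryonic fibroblast feeders inactivated with mitomycin C. The labels give neither the parental ES line nor the site of the deletion, nor do they say whether the knockout replicates are separate clones, so p-values measure the spread between these samples only.

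Molecular chaperones bind unfolded or partly folded proteins and help them to reach or regain their shape. Hsp70 proteins work in cycles of ATP binding with J-domain partners and nucleotide exchange factors, Hsp90 acts later on selected clients such as kinases and receptors, and Hsp60 with Hsp10 forms a folding chamber in mitochondria. Some of these genes are on in every growing cell, while others are induced by heat shock factors, which bind inverted repeats of the letters GAA in promoters. ES cells are known for high constitutive levels of several chaperones.

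The arrays themselves set limits that apply to every result. Each genotype occupied a slide and a scan of its own, so batch and genotype cannot be told apart. Between 25371 and 27754 gene probes were well above background per array, with a 75th percentile of signal from 852 to 1028. Knockout arrays differed from each other less (SD of pairwise log2 differences 0.33 to 0.40) than wild type arrays did (0.51 to 0.64). Zscan5b, at its single probe, had log2 levels of -3.66, -4.03 and -3.12 in wild type arrays against -4.47, -5.17 and -5.13 in knockout arrays (log2 signal relative to the array's 75th percentile), with a limma adjusted p of 0.107. The log2 difference was -1.32, or -0.59 under normexp background correction, and that probe checks the genotype only if it lies in the deleted part. It stayed well above background on all 3 knockout arrays, with scanner signals of 46, 25 and 26. Defining markers of ES cells were present, with 10 of 10 listed genes well above background on every array. The feeder markers were present as well, with 27 of 27 measured genes above background on every array. Their summed signal, in units of the 75th percentile, was 214, 381 and 311 in wild type replicates 1 to 3, against 212, 248 and 199 in knockout arrays. The brightest of these genes, Sparc and Fn1, weigh most in this sum, with log2 differences (knockout minus wild type) of -0.33 and 0.04. The median over the 27 genes was -0.85, with limma adjusted p of 0.0961 or more. In such bulk samples fewer cells of a type and less RNA per cell cannot be told apart.

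The probes decide which genes can be separated. The only Hspa1a probe lists the RefSeq accessions of both Hspa1a and Hspa1b, neighbouring genes on chromosome 17 that encode the stress-inducible Hsp70, so its signal may come from either. Hspa8 encodes the constitutive Hsp70, Hsc70, and one of its 3 probes lies over a related stretch. Both probes are shown 5′ to 3′, with the 23 bases of their best ungapped overlap in capitals, of which 15 are identical.
Hspa1a A_55_P2068459: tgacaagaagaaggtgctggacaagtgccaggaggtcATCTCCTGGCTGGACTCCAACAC
Hspa8 A_55_P2069721: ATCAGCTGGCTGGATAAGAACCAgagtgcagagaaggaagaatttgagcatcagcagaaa
Hspe1 has 3 probes, of which a pair targets almost the same bases. These overlap over 57 bases and differ by 1 substitution, T12C, counted from the 5′ end of the first. The first 24 shared bases are printed with the differing base in capitals.
Hspe1 A_66_P124952: catgtaaataaTttccatgcctcc
Hspe1 A_55_P2089358: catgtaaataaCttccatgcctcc
Those readings of Hspe1 therefore share a target and are not independent of each other.

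Promoter windows of Hspa1a, Hsph1 and Hspe1 are shown next, because heat shock factors are known to act through promoters. The sequences are from RefSeq on GRCm38.p6, and each covers the 250 bases before the annotated start, on the gene's strand. The motifs searched were GAANNTTC and TTCNNGAA, each of which reads the same on both strands, and the overlapping 3-unit forms, which are GAANNTTC followed by NNGAA and TTCNNGAA followed by NNTTC. Capitals mark every base inside a 2-unit motif. The table held windows for 7 of the 10 members.
Hspa1a (chr17:34972157-34972406, minus strand): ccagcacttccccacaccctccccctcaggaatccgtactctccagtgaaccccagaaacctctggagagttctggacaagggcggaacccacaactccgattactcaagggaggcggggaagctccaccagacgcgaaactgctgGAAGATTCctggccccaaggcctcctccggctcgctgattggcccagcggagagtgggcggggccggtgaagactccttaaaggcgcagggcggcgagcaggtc
Hsph1, 1 of its 2 windows (chr5:149636316-149636565, minus strand): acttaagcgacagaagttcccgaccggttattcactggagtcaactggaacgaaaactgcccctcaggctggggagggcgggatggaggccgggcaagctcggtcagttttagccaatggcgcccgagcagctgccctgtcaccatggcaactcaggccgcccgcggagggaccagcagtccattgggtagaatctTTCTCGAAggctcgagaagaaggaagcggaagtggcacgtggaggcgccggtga
Hspe1 (chr1:55087898-55088147, plus strand): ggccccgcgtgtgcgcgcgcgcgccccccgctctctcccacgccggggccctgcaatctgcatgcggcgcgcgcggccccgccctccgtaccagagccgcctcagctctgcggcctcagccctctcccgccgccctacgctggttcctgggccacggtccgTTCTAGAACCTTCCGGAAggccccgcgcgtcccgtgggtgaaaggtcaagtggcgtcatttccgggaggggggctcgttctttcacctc
The Hspa1b window matched that of Hspa1a at 247 of 250 bases, the substitutions being C44T, T47C and T249G, counted from the 5′ end with the Hspa1a base first. Both therefore hold the same single motif. Hspd1 lies head to head with Hspe1 on the other strand, and 1 of its 2 annotated windows shares 215 bases with the Hspe1 window, including an 18-base run of linked motifs. A 3-unit form occurred in 0.466% of 32851 windows of the same length, and among the members in the windows of Hspd1 and Hspe1. A 2-unit form occurred in 12.8% of all windows and in 7 of the 10 member windows. These belong to 6 members: Hspa1a, Hspa1b, Hsph1, Hspb1, Hspd1 and Hspe1. Neither Dnajb1 window held such a form. The Hspa1a and Hspa1b windows are nearly identical, the Hsph1 windows overlap, and Hspd1 and Hspe1 share bases, so the 7 are not independent. A match is a string of letters and not a binding site shown by these data.

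None of the 14 member probes passed the test between genotypes. Groups were compared with limma over 26649 tested probes, with Benjamini-Hochberg adjustment and a threshold of 0.05, and all 14 member probes were among them, well above background on all 6 arrays. The count of 0 stands against 0.465% of all tested probes called (124 probes), 0.124% higher and 0.341% lower in the knockout. Member adjusted p ran from 0.153 to 0.963, and 2 of 14 had an unadjusted p below 0.05 (1 probe each of Hspd1 and Hsph1), against 21.9% of all tested probes. The genotypes did not overlap at 2 member probes, both lower in the knockout, where 29.1% of all tested probes did not overlap in either direction and 15.4% were lower. The log2 fold change, always knockout minus wild type, was negative at 11 probes and positive at 3, with a median of -0.19 against -0.01 over all tested probes. The members include many bright probes: 10 of 14 lay among the 2664 brightest tested probes, where the median was -0.12 and 75% of probes were negative. Under quantile normalization the median was -0.11 for the members, with 9 of 14 negative, and -0.02 for the 2664 brightest.

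**Figure D1:**
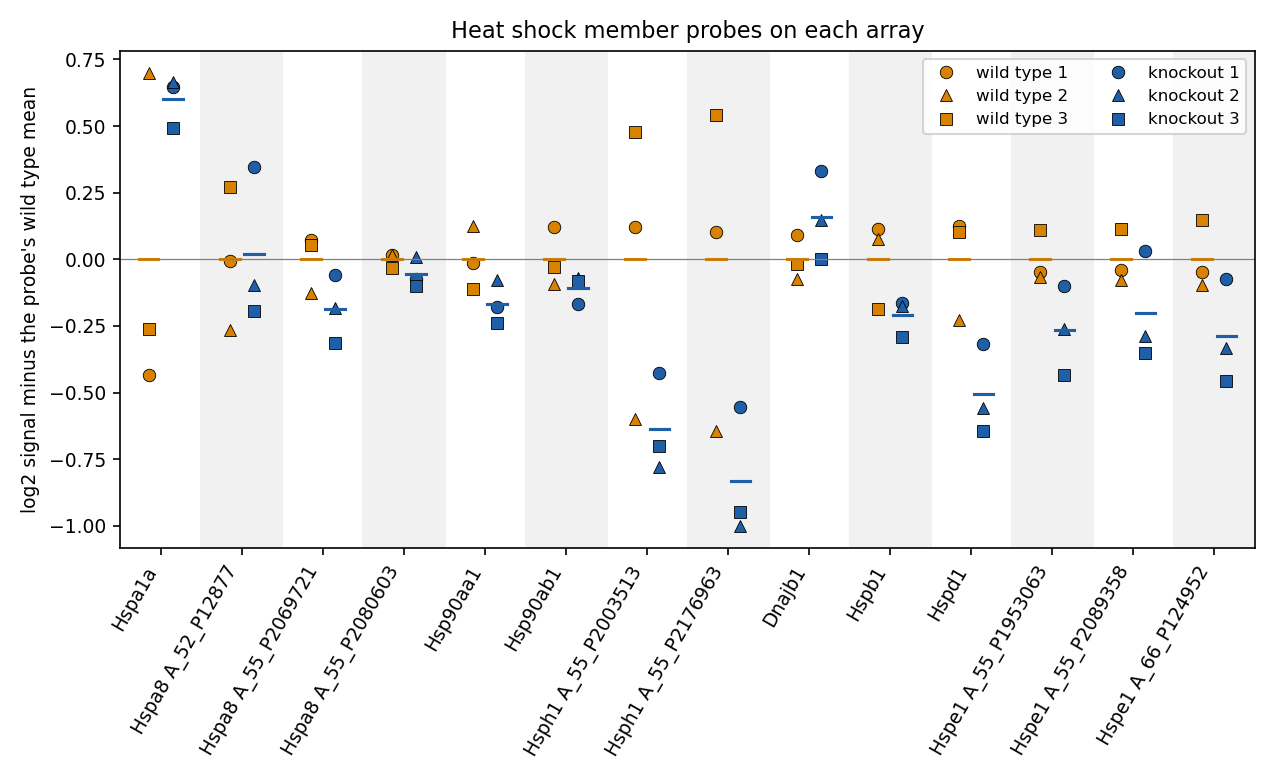
Log2 signal of the 14 member probes on each of the 6 arrays, as the difference from the probe's wild type mean (vertical axis); markers give the replicate number, orange is wild type, blue is knockout, and short bars are group means. Wild type replicate 2 lies with the knockout arrays at the Hspa1a and Hsph1 probes, and the groups do not overlap only at Hspd1 and at 1 Hspe1 probe.

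Hspa1a, the stress-inducible Hsp70 read together with Hspa1b, had the highest positive fold change of the members. Its probe (mm9 chr17:35107117-35107176) had log2 levels of -4.09, -2.96 and -3.91 in wild type replicates 1 to 3 against -3.01, -2.99 and -3.16 in knockout arrays, on the log2 scale relative to the 75th percentile. Wild type replicates 1 and 3 lay below all 3 knockout arrays, while wild type replicate 2 lay above them, so the groups overlapped. The log2 fold change was 0.60 ± 0.30 (SE, n = 3 per group, 95% interval -0.12 to 1.32, limma adjusted p 0.285). The scanner signals behind it were low, between 50.1 and 109.95 in wild type and between 100.24 and 127.9 in the knockout. Without wild type replicate 2 the log2 fold change was 0.95 and passed, with a limma adjusted p of 0.0302 (0.0302 to 0.514 over the alternatives), when 9.6% of all tested probes were called. The value was 0.38 without wild type replicate 1 and 0.47 without wild type replicate 3. Under normexp background correction, which adds an offset of 50 to every signal and so shrinks the fold of a dim probe, it was 0.26.

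Hsph1 encodes Hsp110, a large Hsp70 relative that acts as a nucleotide exchange factor, and it showed the opposite arrangement. Its probe A_55_P2176963 (mm9 chr5:150419744-150419803) had log2 levels of 3.84, 3.1 and 4.28 in wild type arrays against 3.19, 2.74 and 2.79 in knockout arrays. In scanner signal these were 12219, 7304 and 18133 against 9368, 6023 and 6218. Wild type replicate 2 fell inside the knockout range, and the other wild type arrays exceeded every knockout array. Its log2 fold change was -0.83 ± 0.31 (SE, n = 3 per group, 95% interval -1.59 to -0.08, limma adjusted p 0.204). The other probe (mm9 chr5:150420110-150420169) gave -0.63 ± 0.28 with a limma adjusted p of 0.246, from 2.12, 1.40 and 2.47 in wild type arrays against 1.57, 1.22 and 1.30 in knockout arrays. Both probes placed the 6 arrays in the same order. Without wild type replicate 2 the values were -1.15 (limma adjusted p 0.0405, up to 0.471 over the alternatives) and -0.93 (0.0413, up to 0.512), and both passed. Without wild type replicate 3 they were -0.56 and -0.40, and neither passed.

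Hspd1, the mitochondrial Hsp60, had groups that did not overlap. Its probe (mm9 chr1:55134697-55134756) had log2 levels of 6.41, 6.06 and 6.39 in wild type arrays against 5.97, 5.73 and 5.65 in knockout arrays. Every knockout array lay below every wild type array, with wild type replicate 2 and knockout replicate 1 closest to each other. Knockout minus wild type was -0.51 ± 0.15 (SE, n = 3 per group, 95% interval -0.87 to -0.15), a 1.42-fold lower mean, and its adjusted p of 0.153 in limma was the smallest among the members. Leaving out wild type replicate 2 gave -0.62 (limma adjusted p 0.0491) and weighting the arrays gave -0.60 (0.0489), both past the threshold. Of all tested probes, 9.6% and 5.95% were called there. The weights were lowest for wild type replicate 2 (0.30) and highest for knockout replicate 2 (5.86), so these alternatives are not separate. The highest limma adjusted p over the alternatives was 0.412.

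Hspe1, the Hsp10 lid of the Hsp60 chamber, read lower in the knockout by smaller amounts at each of its probes. The probe A_55_P1953063, whose 60 bases span 327 bases of genome (mm9 chr1:55147620-55147946), had log2 levels of 3.55, 3.53 and 3.71 in wild type arrays against 3.50, 3.33 and 3.16 in knockout arrays. The groups did not overlap there, with wild type replicate 2 and knockout replicate 1 closest to each other. The difference on the log2 scale was -0.27 ± 0.12 (SE, n = 3 per group, limma adjusted p 0.266). The overlapping pair of probes gave -0.29 ± 0.14 and -0.20 ± 0.14, and knockout replicate 1 lay within the wild type range at both. Probe A_55_P2089358, the smaller of the pair, was -0.32 without knockout replicate 1 and -0.13 without knockout replicate 3, and quantile normalization gave -0.094 for it and -0.14 for A_55_P1953063. In each of the 3 probes and in Hspd1, knockout replicate 3 was the lowest array.

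Hspa8, the constitutive Hsp70, gave 3 readings that did not pass. Probe A_55_P2080603 (mm9 chr9:40613223-40613282) had log2 levels of 8.05, 8.05 and 8.0 in wild type arrays against 7.96, 8.04 and 7.93 in knockout arrays. These values span a narrow range, and the 95% interval of the log2 fold change was -0.28 to 0.17. That interval does not cover the slide or the choice of scaling. The value was -0.11 under a shift to the median and 0.056 under quantile normalization. The probe A_55_P2069721 gave -0.19 ± 0.12 (SE, n = 3 per group) and A_52_P12877 gave 0.02 ± 0.20. The latter had log2 levels of 4.81, 4.55 and 5.08 in wild type arrays against 5.16, 4.71 and 4.62 in knockout arrays, with the groups overlapping throughout. Its sign changed with 1 of the normalizations and with array weights, and also without wild type replicate 2 or knockout replicate 1.

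The Hsp90 pair, which holds signalling proteins in a state ready for activation, varied little. Hsp90aa1, the inducible form (mm9 chr12:111929248-111929307), had log2 levels of 7.32, 7.46 and 7.22 in wild type arrays against 7.15, 7.25 and 7.09 in knockout arrays. The knockout values were the lower on average, and knockout replicate 2 lay inside the wild type range. The log2 fold change was -0.17 ± 0.11 (SE, n = 3 per group, 95% interval -0.43 to 0.10, limma adjusted p 0.393), and it was -0.10 without wild type replicate 2. Hsp90ab1, the constitutive form (mm9 chr17:45704788-45704847), had log2 levels of 8.12, 7.90 and 7.97 in wild type arrays against 7.83, 7.92 and 7.91 in knockout arrays. Its fold change was -0.11 ± 0.10 (95% interval -0.36 to 0.15, limma adjusted p 0.558), and it was 0.00069 under quantile normalization and -0.045 without wild type replicate 1. The intervals leave room for a small difference in either gene.

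Dnajb1, the J-domain protein Hsp40 that delivers clients to Hsp70, had log2 levels of 3.78, 3.61 and 3.67 in wild type arrays against 4.02, 3.83 and 3.69 in knockout arrays (mm9 chr8:86135660-86135719). Knockout replicates 1 and 2 were above all wild type arrays, and knockout replicate 3 was not. Its log2 fold change was 0.16 ± 0.12 (SE, n = 3 per group, limma adjusted p 0.454), with 0.29 under quantile normalization and 0.074 without knockout replicate 1. Hspb1, a small heat shock protein that holds unfolding proteins without ATP, had log2 levels of 7.46, 7.42 and 7.16 in wild type arrays against 7.18, 7.17 and 7.05 in knockout arrays (mm9 chr5:136365366-136365425). Wild type replicate 3 fell among the knockout arrays, and the log2 fold change was -0.21 ± 0.12 (limma adjusted p 0.336). Apart from the constitutive Hspa8 and Hsp90ab1, then, Hspa1a and Dnajb1 had positive values. Hsph1, Hspb1, Hsp90aa1, Hspd1 and Hspe1 had negative ones, and none of these genes was called.

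**Figure D2:**
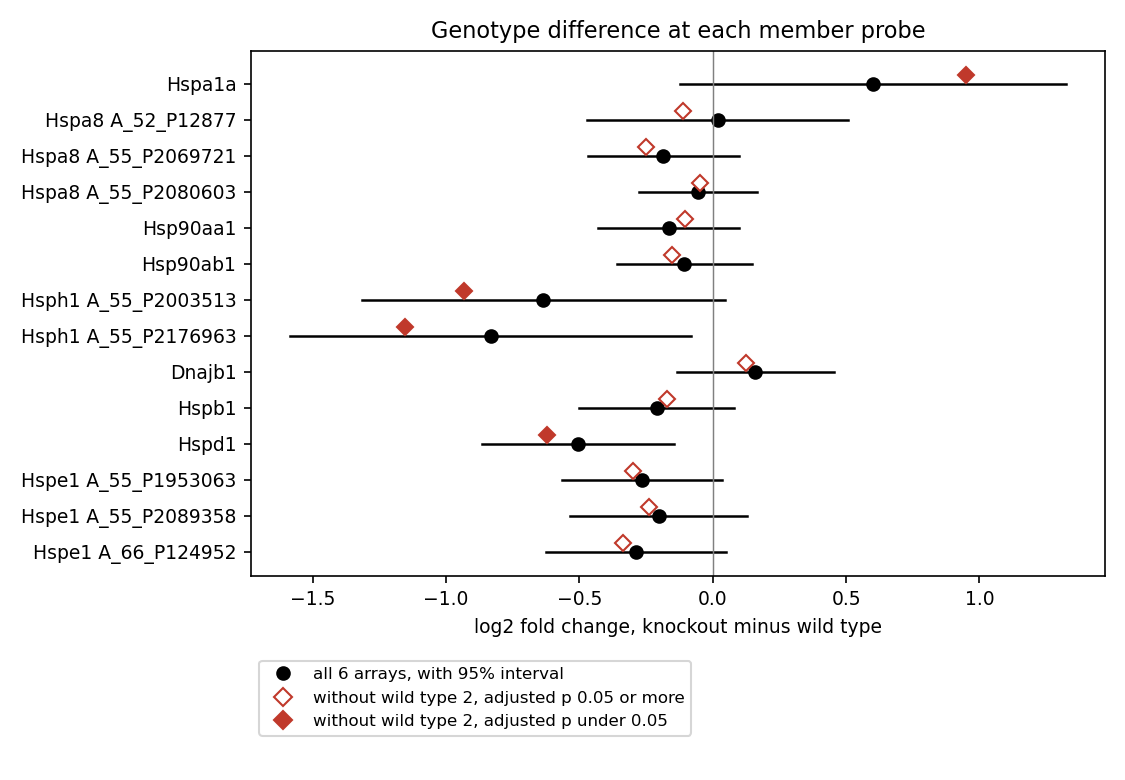
Log2 fold change (knockout minus wild type, horizontal axis) of each member probe; black points with lines are the estimates over all 6 arrays with 95% intervals that are not adjusted for the number of probes, and red diamonds are the estimates without wild type replicate 2, filled where the limma adjusted p is under 0.05. The intervals of 12 of 14 probes include 0, and the 4 filled diamonds are Hspa1a, both Hsph1 probes and Hspd1.

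Wild type replicate 2 moved several members at once. It was the highest wild type array at the Hspa1a probe, 1.05 above the mean of the other wild type arrays on the log2 scale, and the lowest at both Hsph1 probes (-0.90 and -0.96) and at Hspd1 (-0.34). Without it 4 of 14 member probes were called, 1 higher and 3 lower in the knockout, where 9.6% of all tested probes were called, and 8 did not overlap, where 52.8% of all tested probes did not. Leaving out any other array gave 0 called member probes by limma. The feeder marker list averaged -0.62, 1.08 and 0.89 (log2, centred per gene) in wild type replicates 1 to 3. In knockout replicates 1 to 3 it averaged -0.65, -0.18 and -0.53. The part of feeder RNA in the members' values was not tested.

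**Figure D3:**
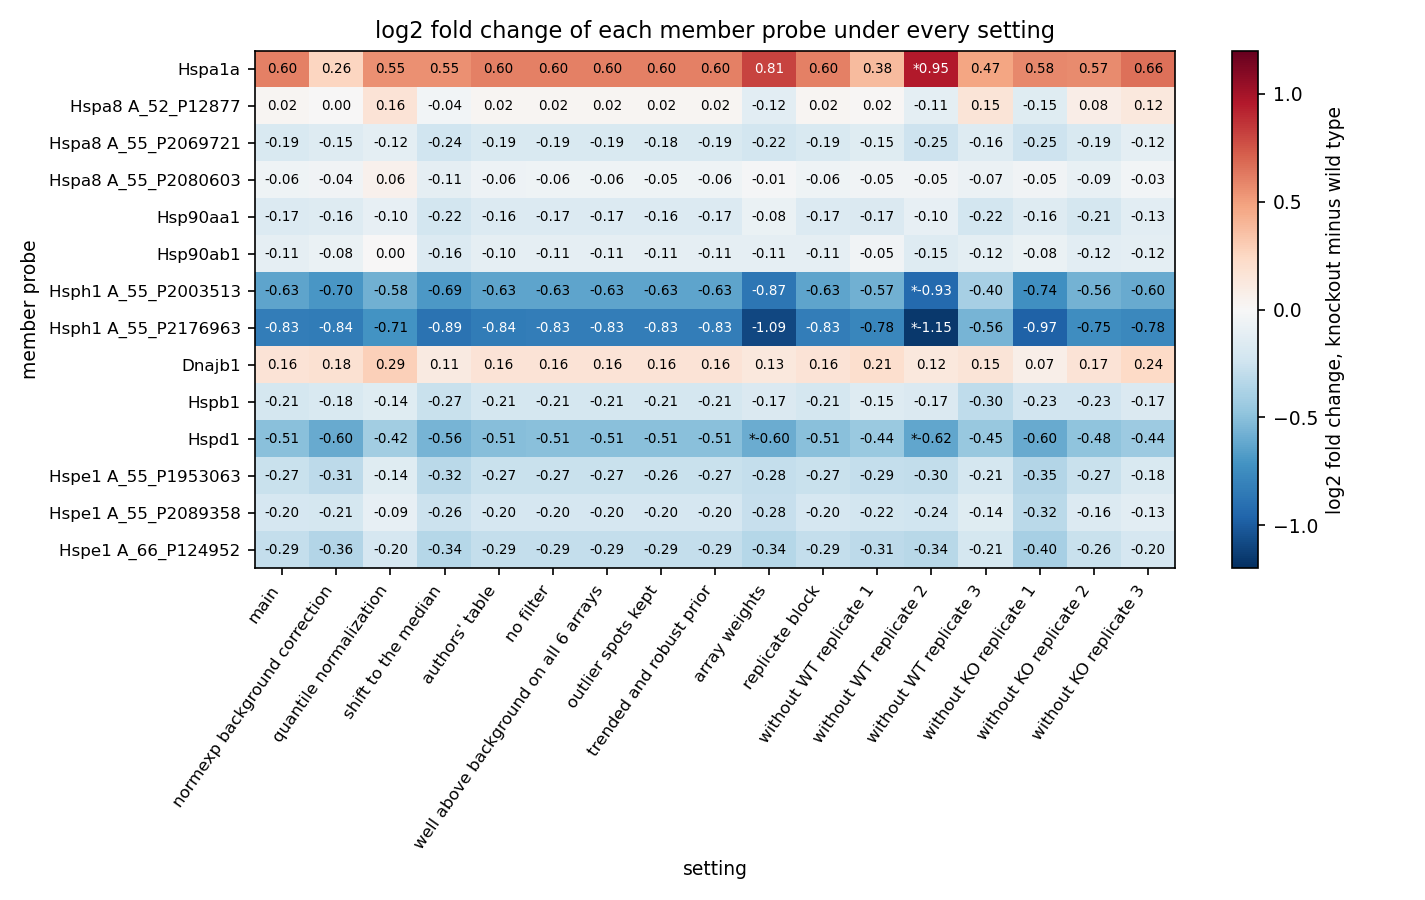
Log2 fold change (knockout minus wild type) of each member probe, as the number and the colour of each cell, under the chosen processing (main) and each alternative; an asterisk marks a limma adjusted p under 0.05. Asterisks appear at 4 probes without wild type replicate 2 and at Hspd1 with array weights.

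Among other chaperone genes, none was called either. A list of 80 genes grouped by role had 78 tested, 1 representative probe per gene (the tested probe with the highest mean). By limma 0 were higher and 0 lower, against 0.465% of all tested probes. An unadjusted limma p under 0.05 was reached by 3 higher and 19 lower genes of the 78. Of all tested probes, 21.9% reached it in either direction. The median log2 fold change was -0.11, with 54 of 78 negative (69.2%, against 51.4% of all tested probes). Among the 2664 brightest tested probes the median was -0.12 and 75% were negative, so the list was near that share. Under quantile normalization 44 of 78 were negative and the median was -0.04, against 1420 of the 2664 brightest and a median of -0.02.

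The cytosolic chaperonin CCT and prefoldin, which fold actin and tubulin, had negative values for 13 of 14 genes, with a median of -0.20. In 9 of these 14 genes every knockout array lay below every wild type array, as in 15.4% of all tested probes and in 848 of the 2664 brightest. Under quantile normalization 10 of 14 were negative, with a median of -0.11, and 6 did not overlap, as did 525 of the 2664 brightest probes in that direction. Pfdn2, a prefoldin subunit, had log2 levels of 3.04, 2.88 and 3.06 in wild type arrays against 2.67, 2.57 and 2.62 in knockout arrays (-0.37 ± 0.10, SE, limma adjusted p 0.138). Cct6a, a CCT subunit, gave -0.35 ± 0.09 (limma adjusted p 0.137), or -0.23 under quantile normalization. Pfdn2 passed with array weights alone, at -0.43.

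Hsp70 and Hsp110 relatives had a median of -0.23 (-0.10 under normexp and -0.14 under quantile normalization), with 7 of 11 genes negative. Hspa4, an Hsp110 family member like Hsph1, had log2 levels of 6.42, 6.19 and 6.35 in wild type arrays against 5.99, 5.92 and 5.76 in knockout arrays. The groups did not overlap, and the log2 fold change was -0.43 ± 0.12 (SE, n = 3 per group, limma adjusted p 0.137), with values down to -0.79 at its other probes. Hspa12b, a distant Hsp70 relative read at a dim probe, gave -1.08 ± 0.37 (limma adjusted p 0.187), which was -0.63 without wild type replicate 3 and -0.58 under normexp. Hsp90 cochaperones and relatives were negative in 10 of 12 genes (7 of 12 under quantile normalization), with a median of -0.20 (-0.10 under quantile normalization). Of all tested probes 51.4% were negative, and of the 2664 brightest 75%. Cdc37, which brings kinases to Hsp90, had log2 levels of 6.09, 6.05 and 6.07 in wild type arrays against 5.79, 5.74 and 5.68 in knockout arrays (-0.33 ± 0.09, limma adjusted p 0.141). Unc45a, a myosin chaperone, gave -0.39 ± 0.10 (0.131).

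J-domain proteins and nucleotide exchange factors were mixed, with 14 of 23 negative and a median of -0.05 (-0.10 under normexp). Bag4, which regulates Hsp70, gave -0.44 ± 0.14 (SE, limma adjusted p 0.163). Dnajb9, an endoplasmic reticulum J-domain protein, had log2 levels of 0.26, -0.69 and -0.48 in wild type arrays against 0.50, 0.36 and 0.36 in knockout arrays, a log2 fold change of 0.71 ± 0.25 (limma adjusted p 0.190). It passed without wild type replicate 1 (0.99, limma adjusted p 0.0319, up to 0.430 over the alternatives). Mitochondrial proteostasis genes were negative in 6 of 7 (4 of 7 under quantile normalization), with a median of -0.06 (-0.0040 under quantile normalization). The negative share was 51.4% of all tested probes and 75% of the 2664 brightest. Clpp, a mitochondrial matrix protease, gave -0.60 ± 0.17 (0.150), and Tomm70a, an import receptor that accepts clients from Hsp70 and Hsp90, gave -0.24 ± 0.10 (0.233), or -0.14 under quantile normalization. Clpp passed with array weights (-0.72) and without wild type replicate 2 (-0.75), the array with the lowest weight.

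Of the 8 small heat shock proteins listed, 6 were tested, and 4 were positive with a median of 0.18 (0.099 under normexp). Hspb8, which works with Bag3 in clearing misfolded proteins, had log2 levels of 0.55, 1.54 and 0.53 in wild type arrays against 1.39, 1.30 and 1.43 in knockout arrays. As at the Hspa1a probe, wild type replicate 2 was the highest array. Knockout minus wild type was 0.50 ± 0.28 (SE, n = 3 per group, limma adjusted p 0.333), and 0.84 without wild type replicate 2, where it passed (0.0302). It was 0.34 without wild type replicate 1 and 0.33 without wild type replicate 3. Hspb9 gave 0.25 ± 0.12 (0.267) and was smaller under normexp (0.14). Without wild type replicate 2, Hspa2 (1.06, adjusted p 0.0389 in limma) and Hspb2 (1.37, 0.0379), both chosen after their values were seen, passed as well. The heat shock factors with the regulator Hsbp1 had a median of 0.10 over 5 genes. Hsf5, a heat shock factor family member, gave 0.71 ± 0.25 (limma adjusted p 0.186; 0.41 under normexp), and Hsf4, read at a dim probe that was well above background on 5 of 6 arrays, gave 0.37 ± 0.50 (0.680) and ranged from -0.050 without wild type replicate 3 to 0.96 without wild type replicate 1. Hsf1, the main factor of the heat shock response and chosen here for that role, had log2 levels of 1.00, 0.62 and 1.11 in wild type arrays against 0.86, 0.71 and 0.84 in knockout arrays, with overlapping groups (-0.11 ± 0.15, limma adjusted p 0.687).

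**Figure D4:**
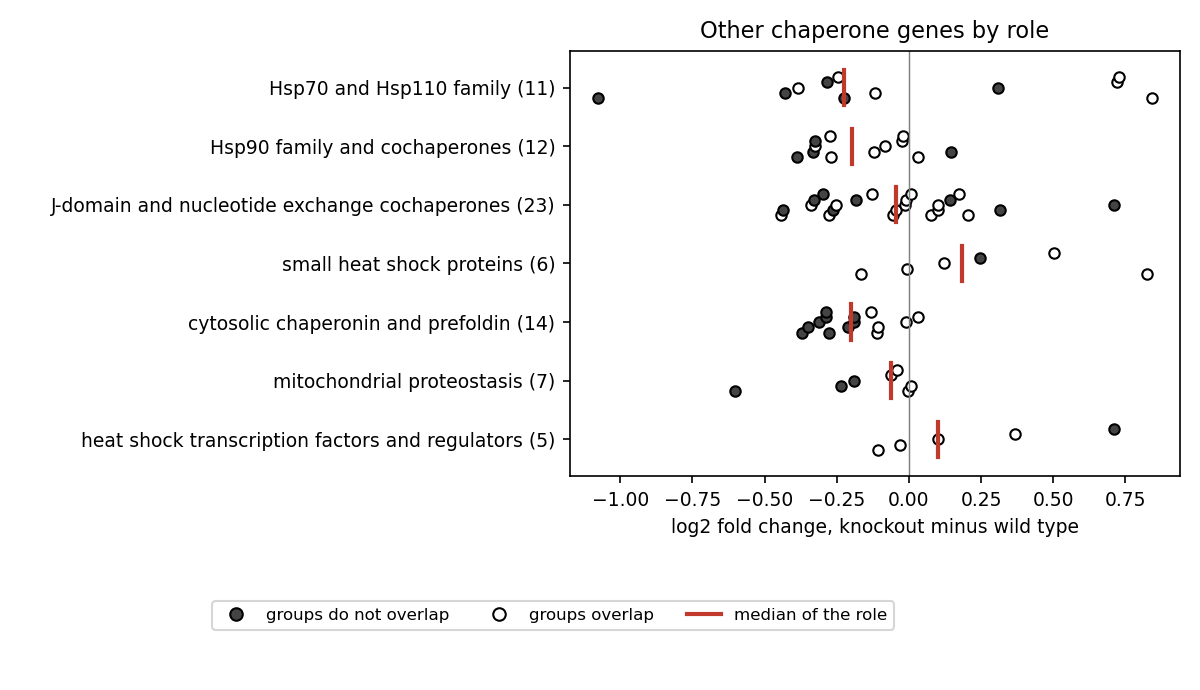
Log2 fold change (knockout minus wild type, horizontal axis) of 78 other chaperone genes by role, with the number tested in parentheses; filled points are genes whose genotypes do not overlap, and red bars are role medians. Cytosolic chaperonin and prefoldin genes lie mostly below 0 (13 of 14), and small heat shock proteins have a median of 0.18.

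Genes outside these lists followed the same profiles over the 6 arrays. Among 14014 named genes well above background on every array, Pearson's r with the Hspa1a and Hspa1b probe was highest for Ate1 (0.996), Mst1, Ckap2, Nedd1 and Tmem38a (0.992). With Hspd1 it was highest for Ppa1 (0.999), Crisp1, Anapc4, Cdc37l1 and Csnk2b (0.998). These r describe 6 arrays that share slides by genotype, and an r above 0.9 was reached by 5.03% of the named genes for the first probe and by 9.84% for Hspd1.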

How the data were processed

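The members and gene lists were chosen with earlier results of these data known. The authors deposited scanner output with a linear intensity for each spot. Its headers name Feature Extraction 10.7.3.1 with a spatial and a multiplicative detrend, no local background step and surrogates for dim spots, and mm9 as the probe annotation, per the file headers; the submitters' processing notes name Agilent Feature Extraction 10.3.1.1. The authors' deposited series table holds log2 values centred per probe (r 0.986 to 0.996 across probes with the scanner values of the same array, slope 0.97 to 0.99). Its column medians were 0.02, -0.01 and -0.07 (wild type) and -0.02, 0.02 and 0.03 (knockout); its direction and scale match the scanner values, and how its columns were scaled stays unknown. It served as an alternative.

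Control spots and outlier spots were left out, log2 processed signals were averaged per probe, and values were set relative to the 75th percentile of their array. Probes well above background on at least 3 of 6 arrays were tested with limma 3.58.1 (lmFit and eBayes, two-sided; R 4.3.3), without a replicate block, and the script was tested on simulated data. The labels share replicate numbers and do not say whether these mark pairs. Deviations from the group means correlated at 0.16, 0.23 and -0.14 for numbers 1 to 3. Between arrays of different number the values ran from -0.32 to 0.21. With 3 arrays per group these correlations cannot decide whether samples of the same number were paired. Named genes are all members, Zscan5b, the 2 genes of each role with the smallest p, and the 5 genes most correlated with Hspa1b (through the probe that lists its accession) and Hspd1; others are marked where named. Alternatives covered background correction, scaling, filters, variance model, array weights and each array left out.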

Additional observations from a re-analysis of the deposited data

How the results depend on the processing

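The calls over all probes and the size of many member values depended on the processing. The sign and call of most member values stayed the same, although several alternatives could not change them. The 33 higher and 91 lower probes became 0 and 0 under normexp background correction, without a filter, with detection on all 6 arrays, with a trended and robust prior and with the replicate number as a block. They were 54 and 177 under a shift to the median and 807 and 778 with array weights, and 50 were higher under quantile normalization. Leaving out 1 array gave 0 to 1409 higher and 0 to 1148 lower, the highest counts without wild type replicate 2. Member probes called, 0 in the chosen processing, were 1 with array weights and 0 to 4 with 1 array left out. Of all tested probes, 5.95% were called with array weights and 0% to 9.6% with 1 array left out. Member probes whose groups did not overlap, 2 in the chosen processing, were 5 under a shift to the median (29.5% of all probes) and 3 to 8 with 1 array left out. Over all tested probes that share was 52.8% without wild type replicate 2 (8 of 14 member probes), 42.6% without knockout replicate 1 (7 of 14), 37.1% without wild type replicate 3 (5 of 14) and 34.2% without knockout replicate 2 (4 of 14). It was 40.9% without wild type replicate 1 (3 of 14) and 33.7% without knockout replicate 3 (3 of 14). Other chaperone genes called, 0 of 78, were 2 with array weights, where 5.95% of all tested probes were called. They were 0 to 4 with 1 array left out, where 0% to 9.6% of all tested probes were called. The median of the other chaperone genes, -0.11, was -0.042 under quantile normalization and -0.16 under a shift to the median. It was -0.061 when all probes of a gene were averaged. The cause of these differences was not tested.

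Of 224 values of single member probes over 16 alternatives, 213 kept sign and call, 5 passed the threshold and 6 changed sign. The filters, the prior and the replicate block leave a member's fold change as it is, so its sign could not change there. Those alternatives, normexp, and leaving out wild type replicate 3 or any knockout array called 0 probes in all, so no member could pass. The size moved more: Hspa1a ran from 0.26 to 0.95 and Hsph1 probe A_55_P2003513 from -0.40 to -0.93, and the member median went from -0.19 to -0.11 under quantile normalization. The sign changes were at Hspa8 probe A_52_P12877 (-0.036 under a shift to the median, -0.12 with array weights, and -0.15 to 0.15 with 1 array left out, -0.11 of these without wild type replicate 2 and the lowest without knockout replicate 1), Hspa8 probe A_55_P2080603 (0.056 under quantile normalization) and Hsp90ab1 (0.00069 under quantile normalization). Among named other chaperones, Hsf4 changed sign (-0.050 to 0.96 with 1 array left out, the lowest without wild type replicate 3). Zscan5b passed with array weights (-1.58) and without wild type replicate 2 (-1.54), the array with the lowest weight. With the replicate number as a block, the member median was -0.19, because a balanced block leaves each difference unchanged. There 0 member probes were called, where 0% of all tested probes were. The slide or scan could not be fitted as a block, because each held 1 genotype. With 3 arrays per group an exact permutation test of a single value cannot go below 0.1.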
